A study of Mus musculus with 4 samples.

Results

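The Usp genes encode the ubiquitin-specific proteases, the largest family of deubiquitinases in mammals. They were described here in 2 lists of N6-methyladenosine (m6A) peaks from mouse c-Kit+ fetal liver cells. The members were all autosomal protein-coding genes of GENCODE M21 whose symbol is Usp followed by a digit. There were 50 of them among 20807 autosomal protein-coding genes. The rule used names only, so no measured value chose a member. 6 genes with such a symbol on the sex chromosomes and 3 that are not protein-coding lay outside it. Usp6nl entered by its symbol, although it encodes a GTPase-activating protein of Rab proteins and not a protease.

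The cells came from C57BL/6 mice and were enriched with magnetic beads for Kit, a receptor of hematopoietic stem and progenitor cells. The study's methods give them as Ythdf2CTL cells, the Ythdf2 fl/fl control genotype. In that allele loxP sites flank exon 2 and GFP follows the start codon, so the m6A reader YTHDF2 was made as a fusion with GFP. Age, sex and the number of animals pooled were not given in the sources used here. In meRIP-seq, RNA fragments are pulled down with an antibody against m6A (the IP) and sequenced beside unselected fragments (the input). The series had 4 samples, IP replicates 1 and 2, given as biological replicates, and input replicates 1 and 2. One list of peaks per IP replicate was analyzed and reads were not. With 1 group of 2 replicates, no difference between conditions could be tested, and the values below are descriptions.

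Ubiquitin is a small protein that is attached to other proteins and marks many of them for breakdown by the proteasome, while other forms of the mark change where a protein goes or what it binds. Deubiquitinases take it off again. The Usp enzymes do this with a catalytic core built around a cysteine (in the Cys box) and a histidine (in the His box), and the segments before, between and after these boxes differ from member to member. m6A is laid down on mRNA at the motif DRACH, in which D stands for any base but C, R for a purine and H for any base but G, most often as GGAC. It is known to be dense in long internal exons and around stop codons, and YTHDF2 binds it and promotes decay of the RNA.

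A gene was counted as carrying a peak where the summit, the highest point of a peak, lay in one of its exons. A peak is called at or near the start or stop codon where its summit lay within 200 nt of it. Replicate 1 had such a summit in 33 of the 50 Usp genes (66%), where 35.5% of all autosomal protein-coding genes had one. Replicate 2 had one in 32 (64%), beside 34.5% of all genes. In both replicates 31 Usp genes had one (62%, exact 95% interval 47.2 to 75.3%), beside 31.9% of all genes. The calls of the replicates differed for 3 genes, and 16 had no exonic summit in either. At least 1 replicate had one in 34 Usp genes (68%), beside 38.1% of all genes. Intervals cover counting error only.

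The members with a summit in both replicates were Usp1, Usp2, Usp3, Usp4, Usp5, Usp6nl, Usp8, Usp10, Usp12, Usp15, Usp16, Usp21, Usp24, Usp25, Usp30, Usp31, Usp32, Usp33, Usp34, Usp36, Usp38, Usp39, Usp40, Usp42, Usp44, Usp46, Usp47, Usp48, Usp49, Usp53 and Usp54. Usp14 and Usp37 had one in replicate 1 only and Usp28 in replicate 2 only. No exonic summit was found in Usp7, Usp13, Usp18, Usp19, Usp20, Usp22, Usp29, Usp35, Usp43, Usp45, Usp50 and the 5 Usp17l copies (Usp17la to Usp17le). A gene without a peak may be unmethylated or too weakly expressed in these cells to give one, and the 2 cannot be told apart from peak lists. The plot of fold enrichment by gene shows every exonic peak of the 34 members that had any.

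**Figure D1:**
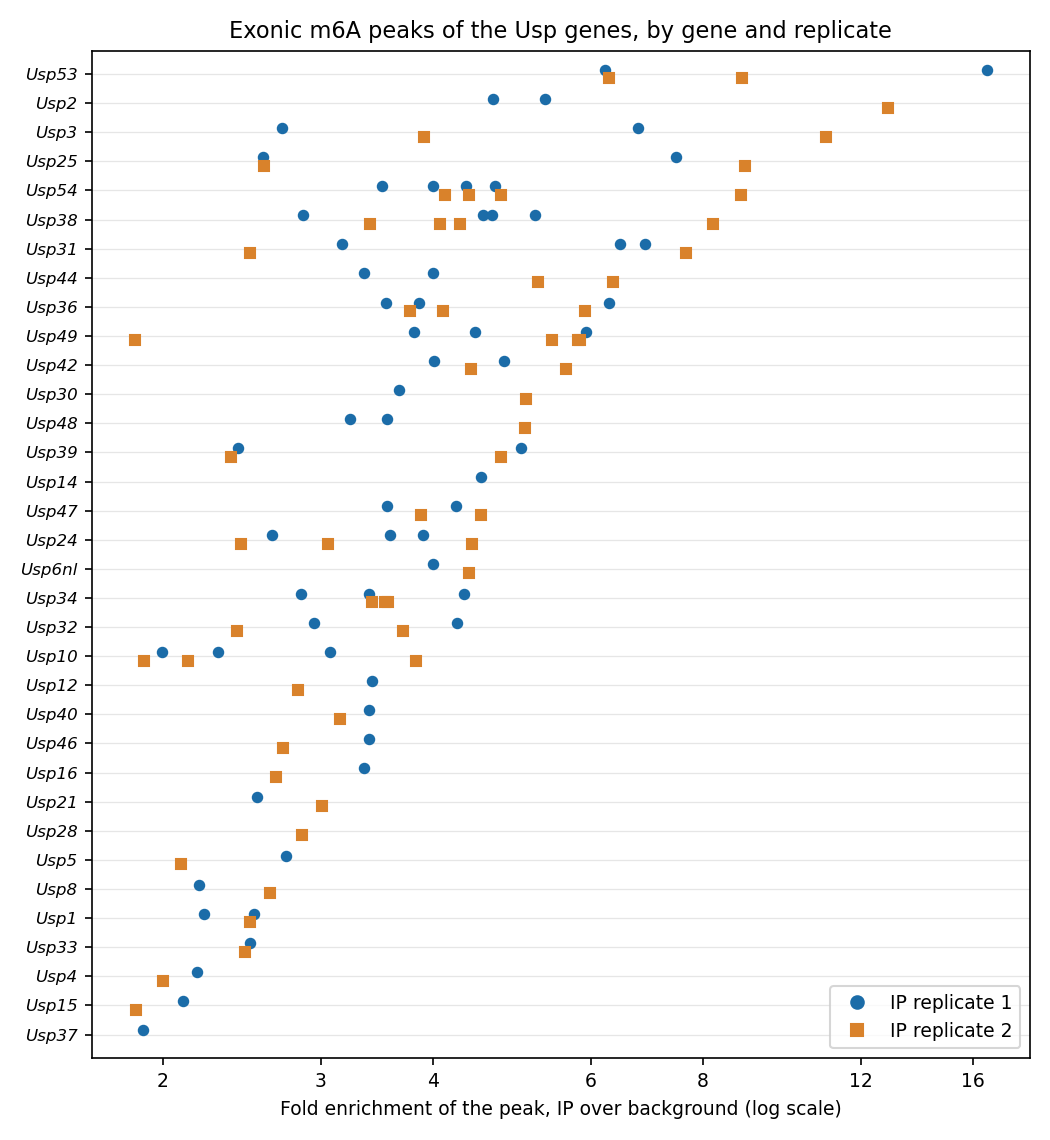
Fold enrichment (IP over local background, log scale) of every exonic peak of the 34 Usp genes with at least 1, as 1 point per peak, with circles for IP replicate 1 and squares for IP replicate 2. Genes are ordered by their highest value, from Usp53 with 16.6-fold in replicate 1 at the top to Usp37 with 1.90-fold in replicate 1 only at the bottom.

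Long genes have more room for a peak, and the Usp genes were long. Their median exonic length was 4717 nt, beside 2835 nt over all autosomal protein-coding genes. Among genes of at least 3000 nt, 28 of 40 Usp genes had a summit in both replicates (70%, interval 53.5 to 83.4%), beside 44.1% of all such genes. Between 2000 and 4000 nt it was 8 of 10 Usp genes beside 33.5% of all genes, and the 2 without one were Usp17la and Usp17lc. Between 4000 and 6000 nt it was 14 of 22 beside 45.2%, and from 6000 nt it was 9 of 13 beside 49.5%. None of the 5 Usp genes under 2000 nt (Usp17lb, Usp17ld, Usp17le, Usp18 and Usp50) had one, beside 15.5% of all genes. The Usp share thus stood above that of all genes in each of the 3 longer bands. Without Usp6nl and the Usp17l copies it was 30 of 44 (68.2%). The pool of all genes was not limited to genes expressed in these cells, and shares at equal expression were not tested.

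**Figure D2:**
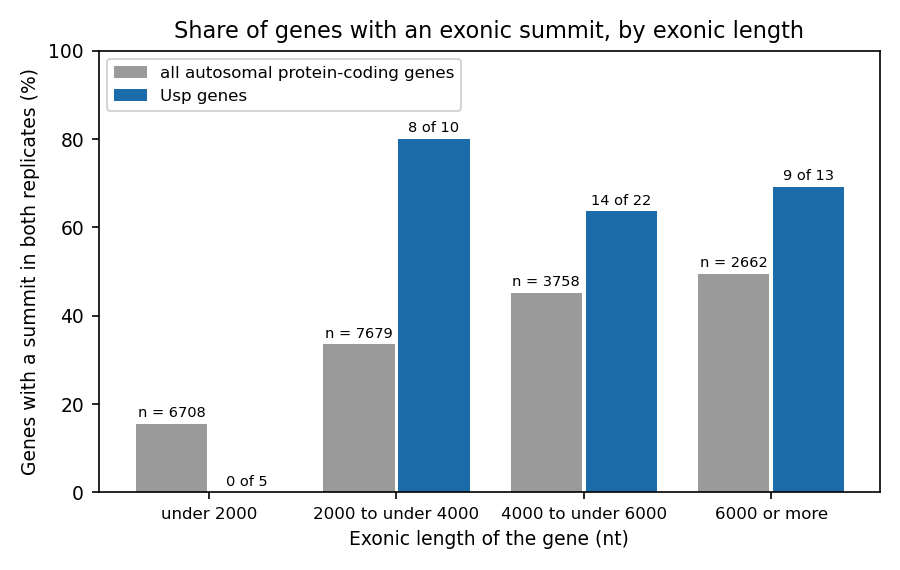
Percent of genes with an exonic summit in both replicates (bars from 0) for all autosomal protein-coding genes and for the Usp genes, in 4 bands of exonic length in nt. The Usp bars are higher than the bars of all genes in the 3 bands from 2000 nt, and none of the 5 Usp genes under 2000 nt had a summit in both.

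Compared with other gene families of the ubiquitin system, the Usp genes stood beside the F-box genes among long genes and above them over all lengths. The F-box genes encode the substrate receptors of SCF ubiquitin ligases. They had a summit in both replicates in 35 of 77 genes (45.5%), and in 25 of 36 of at least 3000 nt (69.4%, beside 70% of the Usp genes). The genes of proteasome subunits, which are short (median 1541 nt), had one in 7 of 49 (14.3%), beside 15.5% of all genes under 2000 nt. The share of Usp genes depended on the strength asked for. With a summit of at least 4-fold in both replicates it was 14 of 50 (28%), beside 17.4% of all genes, with 20 of 77 F-box genes (26.0%).

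In all, 62 exonic Usp peaks were found in replicate 1 and 58 in replicate 2. Of these, 93.5% and 96.6% overlapped a peak of the other replicate, beside 85.2% and 87.5% of the exonic peaks of all genes. Usp peaks were, on the median, weaker in fold but deeper in reads than those of all genes. The median fold enrichment was 3.57 in replicate 1 and 3.90 in replicate 2, beside 4.11 and 4.30. The reads behind a peak were recovered from the fold enrichment and p-value of MACS2, with IP reads taken as whole numbers. For all 62 and 58 Usp peaks the recovered reads gave the deposited −log10 p back within 0.001. The median Usp peak held 92.5 IP reads at its summit in replicate 1 and 91 in replicate 2, beside 71 and 69 over all genes. The background at the same summits was 28.4 and 20.5 reads, beside 18.2 and 14. A Usp gene with peaks also had more of them, with a single peak in 14 of 33 (42.4%) and 16 of 32 genes (50%), beside 59.4% and 59.9% of all genes with peaks. Usp genes with a summit in both replicates were also longer, at a median of 4830 exonic nt beside 3735 nt over all such genes. Peaks per gene were not compared at equal length.

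Peaks of the replicates were joined where 1 peak of each overlapped only the other, which gave 52 pairs in 30 genes. The log2 ratio of replicate 2 to replicate 1 had a mean of 0.09 ± 0.42 (SD, n = 52 pairs), and 50 of the 52 pairs agreed within 2-fold. The exceptions were Usp2 and the 5′ peak of Usp54, both higher in replicate 2. The median distance between paired summits was 13.5 nt. The number of pairs per gene was highest for Usp38 with 4, followed by Usp10, Usp24, Usp34, Usp36 and Usp49 with 3 each.

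**Figure D3:**
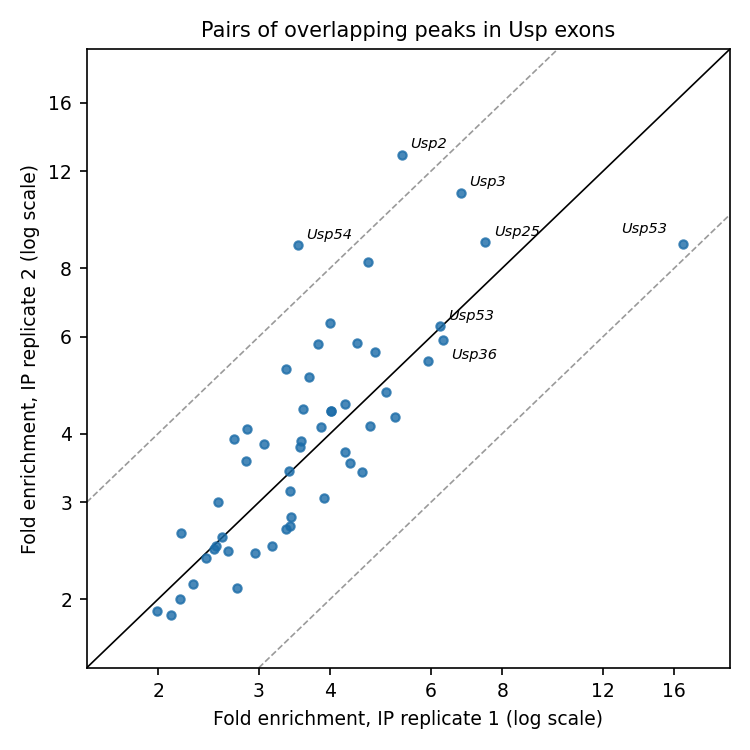
Fold enrichment in IP replicate 1 (x axis) against IP replicate 2 (y axis), both on log scales, for the 52 pairs of overlapping exonic peaks in 30 Usp genes, 1 point per pair. The solid line marks equal values and the dashed lines a 2-fold difference, and 50 pairs lie between the dashed lines.

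The highest value was that of Usp53, 1 of 3 members long regarded as catalytically inactive. Usp53, a protein of cell junctions, had a peak in the coding part of its last exon (exon 16 of 16) at chr3:122933645-122934697 on GRCm38, given as found in replicate 1. It was 16.6-fold in replicate 1 and 8.85-fold in replicate 2, with 33 and 25 IP reads over a background of 1.2 and 1.8 reads. The background was thus too thin to fix the size of the fold. A second Usp53 peak, in the 733-nt exon 13, was close to equal in the replicates, at 6.23- and 6.28-fold. By the lower of its values Usp53 ranked 369th among the 6549 genes with such a peak.

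Usp54, its closest relative, had 4 exonic peaks in each replicate. The peak in its 5′ UTR was 3.51-fold in replicate 1 and 8.81-fold in replicate 2, the widest difference among the pairs, on 24 and 36 reads. The peak at its stop codon was closer, at 4.69- and 4.13-fold. The others lay in exon 18 of 1397 nt, where peaks of one replicate bridged those of the other and were not paired, between 4.01- and 4.77-fold. Usp39, a part of the splicing machinery whose Usp core has lost its catalytic residues, had a peak at the start codon (5.02- and 4.76-fold) and a weaker one in the 3′ UTR (2.43- and 2.38-fold). All 3 members of this group thus had summits in both replicates, beside 62% of all Usp genes and 31.9% of all autosomal protein-coding genes. Whether any role group differed from the family was not tested.

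Among the Usp genes that act on histones, 5 of 7 had a summit in both replicates, and Usp7 and Usp22 had none. Over all Usp genes the share was 62%, and over all autosomal protein-coding genes 31.9%. Usp3, a deubiquitinase of histone H2A, had a peak of 6.78-fold in replicate 1 and 10.97-fold in replicate 2 at its start codon, on 20 and 22 reads. It had a second one at its stop codon, at 2.71- and 3.91-fold. Usp49 and Usp44, relatives that remove ubiquitin from histone H2B, showed the same layout, with peaks in 1 long coding exon each. In Usp49 this was exon 3 of 7 (1375 nt), with peaks of 5.92- and 5.43-fold near its 5′ end and of 3.81- and 5.81-fold further on. In Usp44 it was exon 2 of 6 (1504 nt), with peaks of 4.01- and 6.36-fold at the start codon and of 3.35- and 5.25-fold behind it, on 17 to 21 reads. Usp49 had another peak deep in the 3′ UTR (4.46- and 5.83-fold, 93 and 87 reads) and an unpaired one near the stop codon in replicate 2 (1.86-fold). The coding summits of Usp49 also lay in exons of the overlapping gene Gm20517, and the lists carry no strand. Usp16, which acts on histone H2A in mitosis, had 1 peak in its 664-nt exon 14 (3.35- and 2.68-fold), and Usp21 1 peak in exon 2 (2.54- and 3.01-fold).

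Of the members tied to p53 and its ligase Mdm2, 3 of 5 had a summit in both replicates. The share was 62% over all Usp genes and 31.9% over all autosomal protein-coding genes. Usp2, which removes ubiquitin from Mdm2, differed between replicates, at 5.34-fold on 23 reads and 12.9-fold on 26 reads. The peak lay in exon 2 of 13, with its summits ahead of the Cys box. Background was 4 reads in replicate 1 and 1 read in replicate 2. A weak Usp2 peak in the 3′ UTR was called in replicate 1 only (4.67-fold, 8 reads). Usp42, a deubiquitinase of p53, was steadier and deeper, with a peak in exon 15 of 18 (4.80- and 5.63-fold, 117 and 115 reads) and one in the 3′ UTR (4.01- and 4.41-fold). Usp10, which acts on p53 and, with G3bp1, on stalled ribosomes, had 3 pairs, in exon 4 (3.07- and 3.83-fold), in the 3′ UTR (2.30- and 2.13-fold) and at the stop codon (1.99- and 1.90-fold). Usp7, the main deubiquitinase of Mdm2, and the imprinted Usp29 had no exonic summit in either list.

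Usp36, a nucleolar deubiquitinase and the closest relative of Usp42, had the most IP reads among the pairs above 5-fold in both replicates. This peak lay in the 3′ UTR at chr11:118260580-118261576 (replicate 1) and was 6.29- and 5.92-fold on 135 and 137 reads. The others lay in exon 16 of 21 (3.86- and 4.11-fold) and exon 14 (3.54- and 3.78-fold). All 3 pairs of Usp36 differed by less than 0.1 on the log2 scale between replicates.

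Of the 5 members tied to interferon and NF-kB signaling, Usp25, Usp21 and Usp38 had a summit in both replicates, and Usp18 and Usp20 had none. These 3 of 5 stand beside 62% of all Usp genes and 31.9% of all autosomal protein-coding genes. Usp18 removes the ubiquitin-like ISG15 and restrains the interferon receptor. Usp25 had the second highest paired peak of the family by the lower replicate, in its 5′ UTR at chr16:77013639-77013839 (replicate 1), at 7.47- and 8.93-fold, but on only 13 and 12 reads. Its other peak, at the stop codon, was deep and weak (2.59- and 2.60-fold, 162 and 149 reads). Usp38, with 4 pairs, had them in the 5′ UTR (5.20- and 4.29-fold), in the coding part of exon 1 (4.65- and 8.21-fold), in exon 9 of 1363 nt (2.87- and 4.07-fold) and at the stop codon (4.54- and 3.40-fold). Its exon 1 is shared with the gene model Gm9725. No replicate was higher throughout, since each had the higher value in 2 of the 4 pairs.

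The members of DNA repair and of the cell cycle that had summits in both replicates had no peak above 6.36-fold, the value of Usp44 given before. Usp47, a deubiquitinase of DNA polymerase beta, had peaks in exon 21 (4.25- and 4.52-fold, 148 and 151 reads) and at the stop codon (3.56- and 3.88-fold). Usp1, which acts with Wdr48 on Fancd2 and PCNA, had the most IP reads of any pair (189 and 188) at 2.52- and 2.50-fold in its last exon. A second Usp1 peak in exon 6 (2.22-fold) was called in replicate 1 only. Usp48 had a 3′ UTR region called as 2 peaks in replicate 1 (3.24- and 3.56-fold) and as 1 in replicate 2 (5.06-fold). Usp33, which acts at the centrosome, had 1 peak in exon 10 (2.50- and 2.47-fold). Usp45, which acts on the repair nuclease Ercc1, had no exonic summit.

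Of the 3 calls that differed between replicates, 1 was weak, 1 shallow and 1 neither. Usp37, which acts on cyclin A, had a peak near its stop codon in replicate 1 at 1.90-fold on 64 reads over a background of 38. Usp28, a stabilizer of Myc and the closest relative of Usp25, had one at its stop codon in replicate 2 at 2.86-fold on 23 reads. Usp14, which trims ubiquitin at the proteasome, had one near its start codon in replicate 1 at 4.53-fold on 51 reads, above the median fold of Usp peaks, with no overlapping peak in replicate 2.

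Usp genes of splicing, of membranes and of ubiquitin recycling follow. Usp4 and Usp15, relatives of which both act on the spliceosome, had 1 pair each at the stop codon, at 2.18- and 2.0-fold and at 2.11- and 1.87-fold, the latter the lowest of all by the weaker replicate. Both were deep, with 144 to 163 IP reads. Over all Usp genes 62% had a summit in both replicates, and over all autosomal protein-coding genes 31.9%. Of 8 members that act at membranes, 6 had a summit in both replicates. Among them were Usp32 of the Golgi (exon 32, 4.25- and 3.70-fold), Usp30 of the outer mitochondrial membrane (3′ UTR, 3.67- and 5.08-fold), Usp8 of endosomes (exon 11, 2.20- and 2.63-fold) and Usp6nl (4.01- and 4.39-fold in its last exon, with summits 461 nt apart). Usp34, which acts on axin in Wnt signaling and at 80 exons is the longest transcript of the family, had peaks in exons 15, 68 and 80 between 2.85- and 4.33-fold, and its last exon overlaps Ahsa2. Usp5, which takes apart unanchored ubiquitin chains, had 1 pair near the stop codon (2.74- and 2.09-fold), and its relative Usp13 had none.

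Usp12 and Usp46 share the activator Wdr48 with Usp1 and are near twins in their coding sequence. Both carried 1 pair, of 3.42- and 2.83-fold in Usp12 and 3.40- and 2.72-fold in Usp46. It lay at the stop codon in Usp12 (65 and 60 nt past it) and far into the 3′ UTR in Usp46 (1524 and 1584 nt past it). The remaining members are given without a role. Usp31 had 2 strong coding peaks in replicate 1 (6.90- and 6.46-fold) that were 1 peak in replicate 2 (7.67-fold, 115 reads), plus a weak 3′ UTR pair (3.16- and 2.50-fold). Usp24 had 3 pairs in its last exon between 2.44- and 4.43-fold. Usp40 had 1 pair at 3.40- and 3.15-fold, with a summit outside the transcript used for placement in replicate 2.

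Of 9 pairs of close relatives, listed after the values were seen, both genes had a summit in both replicates in 5 (Usp4 and Usp15, Usp12 and Usp46, Usp36 and Usp42, Usp44 and Usp49, Usp53 and Usp54). In the other 4 only 1 gene had, namely Usp5 but not Usp13, Usp33 but not Usp20, Usp38 but not Usp35, and Usp25 but not Usp28, which had one in replicate 2 alone. Gene by gene, the share was 62% over all Usp genes and 31.9% over all autosomal protein-coding genes. Whether relatives shared calls more often than other members was not tested.

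Summits were placed on the transcript with the longest coding sequence where no other gene overlapped, which left 57 in replicate 1 and 51 in replicate 2. Where they lay followed the length of exons. Of the placed summits, 36.8% in replicate 1 (21 summits, interval 24.4 to 50.7%) and 39.2% in replicate 2 (20 summits, 25.8 to 53.9%) lay in internal exons of at least 400 nt, which hold 10.3% of the bases of these transcripts. Over all genes the share was 20.9 and 20.8% of summits, with 8.48% of bases. No Usp summit lay in an internal exon under 400 nt, although such exons hold 41.8% of the bases. The 0 of 57 and 0 of 51 summits allow shares of up to 5.26% and 5.88% by the limit of 3 counts, and of up to 6.27% and 6.98% by the exact 95% interval. Over all genes 5.23 and 5.12% of summits lay there, which is within these limits. The last exon held 56.1 and 54.9% of Usp summits, beside 42.7% of bases.

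**Figure D4:**
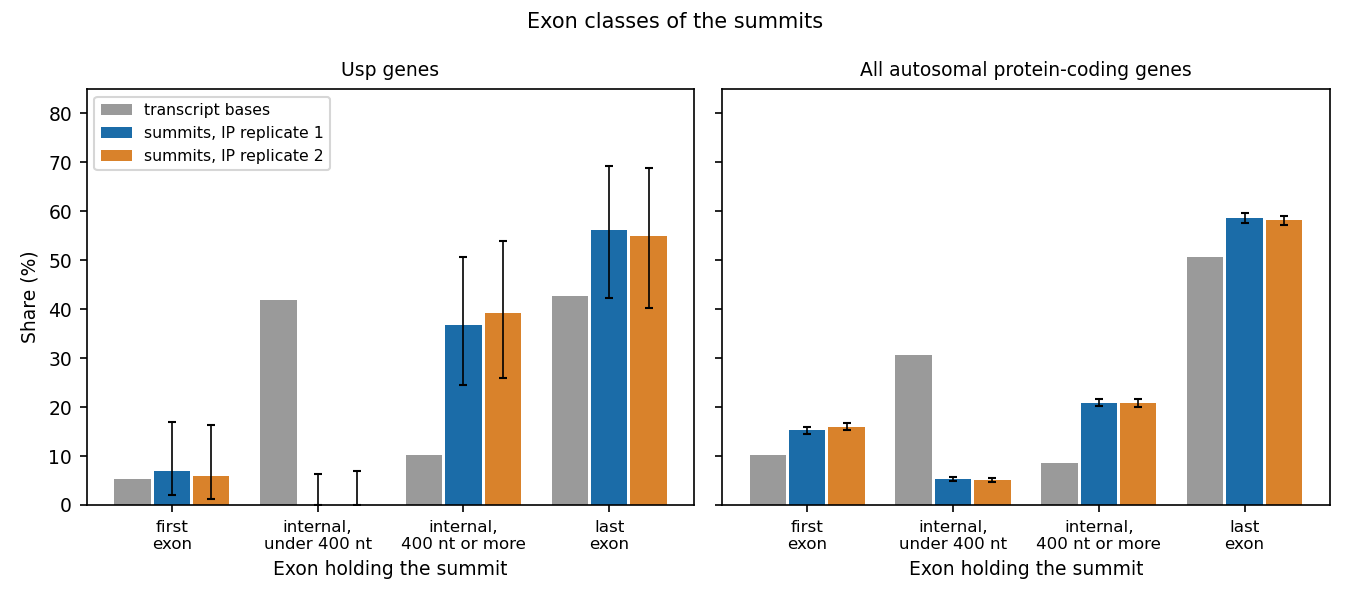
Percent of placed summits in the first exon, in internal exons under and from 400 nt, and in the last exon, for IP replicates 1 and 2, beside the percent of transcript bases in each class (gray), for the Usp genes (left) and all autosomal protein-coding genes (right). Lines on the bars are exact 95% intervals for counting error, and no Usp summit lay in an internal exon under 400 nt.

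There were 28 internal exons of at least 400 nt in 21 Usp genes, and 19 of them, in 16 genes, held a summit in both replicates. Of these 21 genes, 17 had a summit in both replicates in some exon, and the 4 with none were Usp17le, Usp20, Usp35 and Usp45. Such an exon was present in 54.8% of Usp genes with a summit in both replicates and 25% of those with none. Over all autosomal protein-coding genes it was 27.7 and 12.1%. How often such exons hold a summit over all genes is not given here. The shortest internal exon with a coding Usp summit was exon 10 of Usp33 at 415 nt. Peaks were called along the genome, and the median Usp peak spanned 447.5 bp in replicate 1 and 425 bp in replicate 2. How calling treats exons shorter than a peak was not tested. The map of summits on the transcripts shows this layout for each gene.

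**Figure D5:**
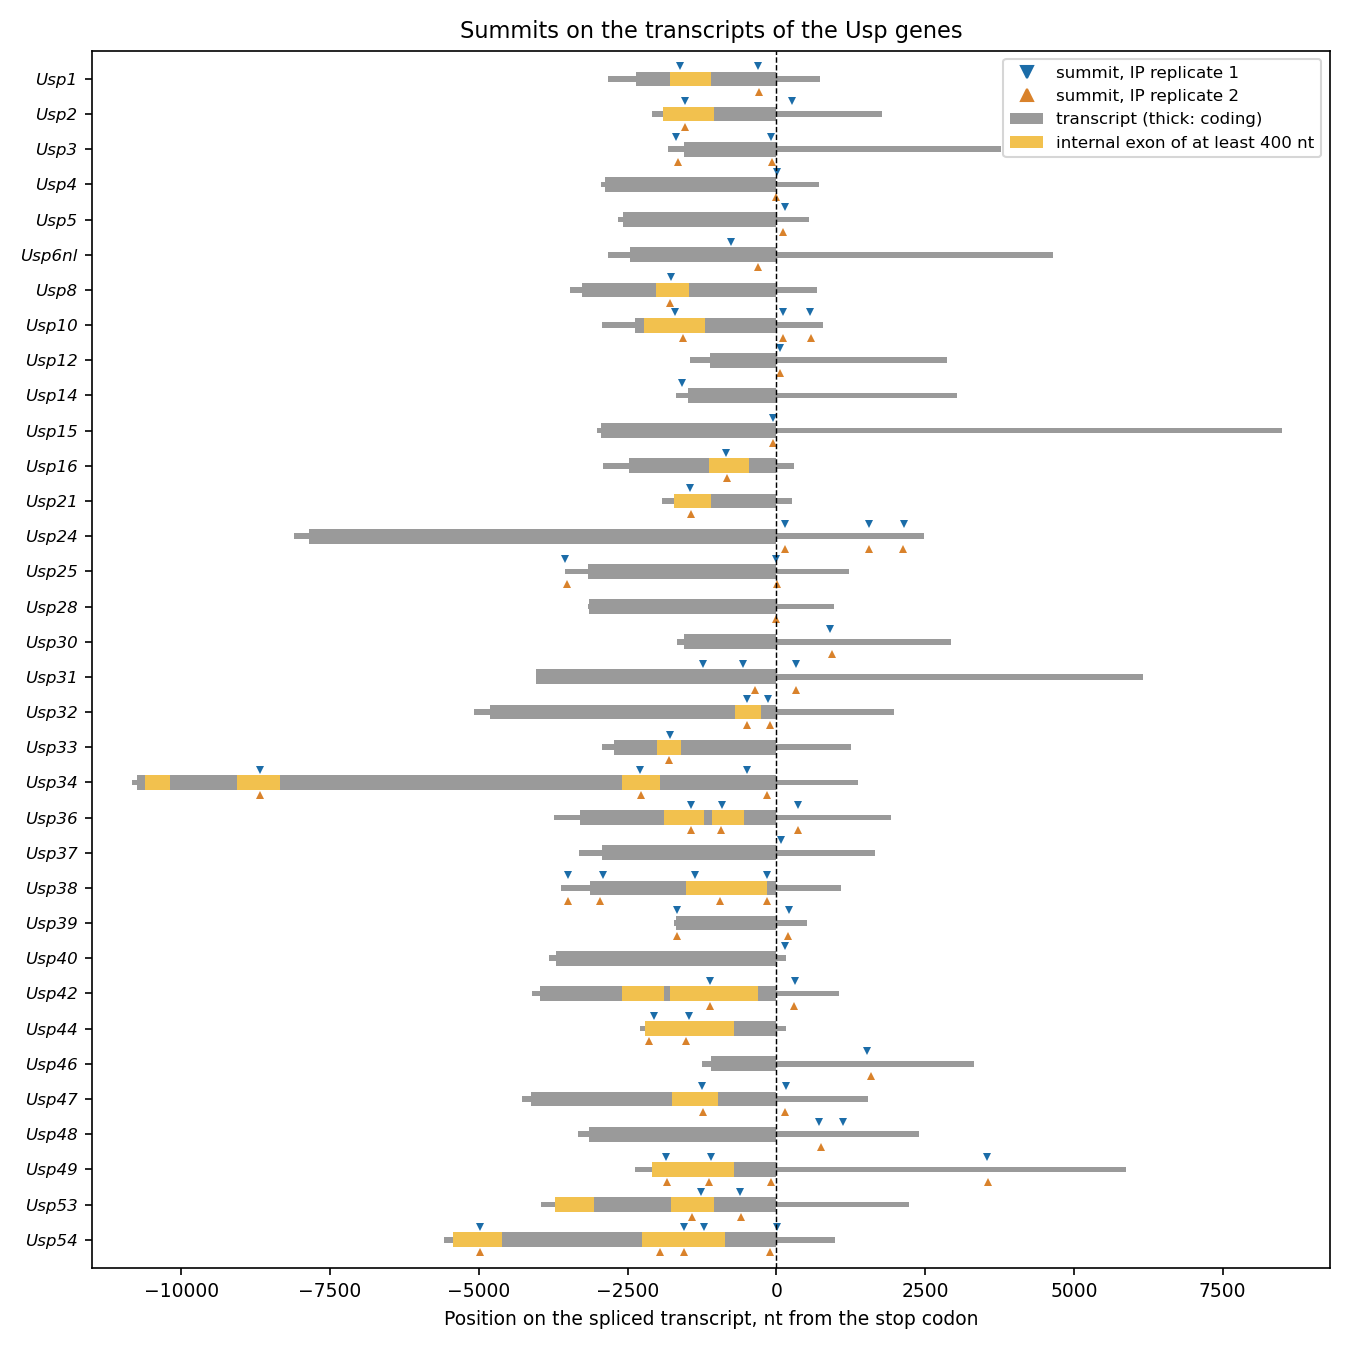
Spliced transcripts of the 34 Usp genes with an exonic summit, aligned at the stop codon (x axis, nt; coding part thick, UTRs thin, internal exons of at least 400 nt in yellow), with summits of IP replicate 1 above and of IP replicate 2 below each transcript. Summits stand over yellow exons, in the last exon on both sides of the stop codon, or near the 5′ end, and none stands over an internal exon under 400 nt.

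By region, the coding sequence held the largest share of Usp summits, though not more than its share of bases. Away from the start and stop codons, 42.1% in replicate 1 and 43.1% in replicate 2 lay in the coding sequence, which holds 50.03% of the bases. Over all genes it was 33.9 and 33.7% of summits with 40.3% of bases, so that more of the Usp transcripts is coding. Within 200 nt of the stop codon lay 24.6 and 25.5%, beside 7.32% of bases and 30.9 and 29.98% of the summits of all genes. Within 200 nt of the start codon lay 7.02 and 5.88% with 6.57% of bases, beside 14.5 and 15.1% of summits and 9.11% of bases over all genes. The 3′ UTR held 22.8 and 21.6% with 34.1% of bases, and the 5′ UTR 3.51 and 3.92%. The intervals of these Usp shares were wide, such as 14.1 to 37.8% for the stop codon in replicate 1.

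The Cys box and the His box were both found in the translated coding sequence of 44 members. Of 27 coding summits in these members in each replicate, 13 in replicate 1 and 15 in replicate 2 lay after the His box. These were 48.1% (interval 28.7 to 68.1%) and 55.6% (35.3 to 74.5%), and the stretch holds 30.6% of the codons. Shares of codons are over those of the 44 members that had an exonic summit in at least 1 replicate. The interval of replicate 1 includes that share. Coding summits here include those within 200 nt of the start or stop codon, such as those of Usp3 and Usp15 after the His box. They also include summits of Usp34, Usp38 and Usp49 in exons of overlapping genes, which the placement by exon and region left out. Examples after the His box and away from the stop codon were both coding peaks of Usp36, the coding peak of Usp42 and that of Usp47. Between the boxes lay 6 and 5 (22.2 and 18.5%, with 37.1% of codons), among them those of Usp16 and Usp33. Before the Cys box lay 8 and 7 (29.6 and 25.9%, with 32.3% of codons), among them those of Usp2, Usp8 and Usp10. Members with 2 or more coding summits count more than once here.

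The motif stood near most summits. GGAC lay within 50 nt on the sense strand of the transcript for 64.9% of placed Usp summits in replicate 1 and 64.7% in replicate 2, beside 56.2% in both lists over all genes and 30.9% of all positions on these Usp transcripts. DRACH, which includes GGACH, lay within 50 nt for 94.7 and 98.0%, but 87.3% of all positions had it too. The closest GGACH was 38 nt from the summit on the median in replicate 1 and 24 nt in replicate 2, beside 45 nt over all genes in both lists.

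The sites nearest to strong paired summits are shown so that the motif can be read at these peaks, each 29 bases on the sense strand of GRCm38 with the motif in capitals. The first 3 lie close to both summits, in the coding part of Usp53, Usp2 and Usp42, at chr3:122934302-122934330 (minus strand), chr9:44075710-44075738 (plus) and chr5:143715400-143715428 (minus). The A of the motif lay 23 and 10 nt past the summits of replicates 1 and 2 in Usp53, 3 past and 2 before in Usp2, and 3 and 2 past in Usp42.
Usp53: aagcccgaaactGGACCcctcatgttttg
Usp2: ccctcgggcagtGGACTcaacggaggcag
Usp42: aaagtggaccgaGGACActatcggagccg

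Some peaks at 5′ ends had the motif near their summits too. That of Usp25 (chr16:77013718-77013746, plus) lay 18 nt past and 10 before the summits, and that of Usp3 (chr9:66592970-66592998, minus) 15 past and 8 before. Usp54 (chr14:20607416-20607444, minus) had it 18 and 8 nt past.
Usp25: gcggcggccggaGGACAgcgccattccgg
Usp3: cgcaaaggctcgGGACCcagaagccgccg
Usp54: caggtgaaggaaGGACAgctttggcacct

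Not every strong peak had it. The Usp14 peak near its start codon, called in replicate 1 only at 4.53-fold, had neither GGAC nor DRACH within 50 nt of its summit. In the 3′ UTR peak of Usp36, the closest GGACH lay 471 and 484 nt past the summits, and the nearest DRACH of any form, GAACA, lay 34 and 21 nt before them (chr11:118261220-118261248, minus). At the start codon of Usp39 the nearest was TAACT, 35 and 39 nt before the summits (chr6:72345148-72345176, minus), and in the coding peak of Usp32 GAACT, 7 nt past and on the summit (chr11:84988548-84988576, minus). A match of letters does not show which base was methylated.
Usp36: ctgtcagataagGAACAgaggccagggtg
Usp39: cgcggaagctccTAACTggtggtggcgat
Usp32: gggcagatctgtGAACTggctgacacctt

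Longer stretches of coding sequence around paired summits, 121 bases each, differed in how often the motif came. The one in exon 3 of Usp49 (chr17:47672225-47672345, plus) held 4 GGACH sites and that in exon 15 of Usp42 (chr5:143715357-143715477, minus) 3. A second one in the same exon of Usp49 (chr17:47672956-47673076, plus) held none, and its summits had their closest GGACH at -555 and -526 nt, on the 5′ side. They were chosen after their sequences were seen, to show that peaks lay over stretches with and without the motif.
Usp49, first: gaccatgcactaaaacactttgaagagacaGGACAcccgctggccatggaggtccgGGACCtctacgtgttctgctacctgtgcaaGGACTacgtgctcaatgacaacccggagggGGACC
Usp42: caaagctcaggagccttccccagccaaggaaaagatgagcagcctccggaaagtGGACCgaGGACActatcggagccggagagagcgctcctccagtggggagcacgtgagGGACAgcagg
Usp49, second: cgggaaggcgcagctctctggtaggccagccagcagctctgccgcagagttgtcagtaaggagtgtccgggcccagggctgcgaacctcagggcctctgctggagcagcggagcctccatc

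The 16 members without an exonic summit were not poorer in the motif. They had a median of 4.45 GGAC per kb of transcript, beside 4.25 in the 31 members with a summit in both replicates. They had shorter coding sequences (median 2037 nt beside 2886) and fewer exons (11 beside 18), and 25% had an internal exon of at least 400 nt, beside 54.8%. Without the 5 Usp17l copies, the other 11 had medians of 2607 coding nt, 15 exons and 5.01 GGAC per kb, and 27.3% had such an exon. Their exonic length was 4884 nt for Usp7, 7580 for Usp13, 1771 for Usp18, 5292 for Usp19, 5692 for Usp20, 4434 for Usp22, 8003 for Usp29, 4262 for Usp35, 4462 for Usp43, 6005 for Usp45 and 1387 for Usp50. The Usp17l copies, from 1561 to 2656 nt, bear the names of copies of 1 gene. Whether reads could be told apart among them was not tested, so the lack of peaks there is uncertain.

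Some members had a summit in an intron, which in Usp8, Usp33 and Usp47 came in addition to exonic ones. In Usp20 a peak of 11.7-fold in replicate 1 and 8.84-fold in replicate 2 (62 and 51 reads) lay in an intron and reached into an exon, so Usp20 joined the genes with a call in both replicates, 32 in all, where any overlap of the peak with an exon was enough. An intronic peak of Usp47 was 4.48- and 3.71-fold, and one of 5.77- and 4.41-fold lay in introns of both Usp8 and Usp50. Usp45 (9.44-fold, 19 reads) and Usp33 (4.10-fold) had one in replicate 1 only. The labels give total RNA for IP and polyA RNA for input samples, and the control used in peak calling is not known. Whether folds in introns can be set beside those in exons was thus not tested.

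Other deubiquitinases, in lists chosen from textbook knowledge, had a summit in both replicates in 22 of 38 genes (57.9%), beside 31.9% of all autosomal protein-coding genes, in 1 replicate in 5 and in neither in 11. Of those of at least 3000 nt it was 16 of 20 (80%), beside 44.1% of all such genes. By family it was 11 of 13 of the OTU family, 3 of 10 of the JAMM metalloproteases, 3 of 5 of MINDY and Zup1, 1 of 4 of the UCH family and 1 of 3 of the Josephin family. Cyld, Uspl1 and Pan2, which share the Usp fold under other symbols, all had one. Of 7 partner subunits of Usp enzymes 5 had one, including Wdr48, which activates Usp1, Usp12 and Usp46, and G3bp1, which binds Usp10. Atxn7 and Atxn7l3 of the module that holds Usp22 had one too, while Usp22 itself and its partner Eny2 had none.

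As a check of the label, summits in both replicates were found in 8 of 12 stem and progenitor marker genes, 4 of 8 erythroid, 2 of 8 hepatocyte and 2 of 6 macrophage markers, beside 31.9% of all autosomal protein-coding genes. Kit itself had none. Of the hepatocyte markers Apoa1 and Hnf4a had one. A summit needs both expression and methylation, so the cell makeup of the samples could not be read from these counts. Their part in the Usp peaks was not tested.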

How the data were processed

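m6A meRIP-seq of c-Kit-enriched Ythdf2CTL cells was processed by the authors, who aligned reads to GRCm38 with HISAT2 and called peaks per replicate with MACS2 (version 2.1.1.20160309, nomodel). The q threshold, effective genome size and control library are not given in the sources used here. The smallest −log10 q in the deposited lists was 1.31 and 1.30, at q of 0.05. The labels give total RNA for IP and polyA RNA for input samples. The fold enrichment of a peak is a ratio of IP to local background that the authors' run of MACS2 computed at the summit. The deposited −log10 p and −log10 q values are of the same position, and the deposited score is derived from −log10 q. Library totals are unknown, so IP and background reads at each summit were solved from fold enrichment and −log10 p, which matched within 0.001 for 100% of 15635 peaks in replicate 1 and 98.1% of 14872 in replicate 2.

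Exons were those of the GENCODE M21 basic set, of the same build. Summits were counted in exons with Python (3.11.15), NumPy (2.4.6) and SciPy (1.17.1), and plots were drawn with matplotlib (3.10.9). The steps were tested on simulated data. Peaks were shared where they overlapped by at least 1 bp. GGAC and DRACH were searched on the sense strand only. The Cys and His boxes were searched by pattern in translated coding sequences. Shares have exact Clopper-Pearson 95% intervals. Transcript sequences are those of GENCODE.

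Named values cover the 12 members with the highest paired peak, by the lower replicate, those with the most pairs, those called in 1 replicate and up to 2 more per role list, and the rest are given where space allowed. The Usp family was picked for description, and the role lists, other gene lists and relatives were drawn up from general knowledge, with earlier results of these data known, although the rule for members uses names alone. Other thresholds, exon sets, windows and either replicate alone were tried.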

Additional observations from a re-analysis of the deposited data

How the results depend on the processing

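The count of 31 Usp genes with an exonic summit in both replicates was 29 to 34 under a minimum −log10 q of 3 or 5, any overlap of the peak with an exon, other exon sets and without summits shared with another gene. Usp40 and Usp44 were lost at a minimum −log10 q of 5, Usp40 with exons of 1 transcript only, and Usp37, Usp45 and Usp50 were gained with the comprehensive exons. A minimum fold enrichment of 4 left 14 in both, 17 in replicate 1 and 17 in replicate 2. With either replicate alone the count was 32 to 33, the share of summits near the stop codon 24.6 to 25.5%, the share with GGAC 64.7 to 64.9% and the median fold 3.57 to 3.90. The 95% of Usp peaks that overlapped the other replicate became 86.7% at a 50% reciprocal overlap, 78.3% with summits within 100 bp and 75.9% at a minimum fold of 4. The share at the stop codon (25%) was 12.04% with a window of 100 nt and 37.0% with 400 nt, and that with GGAC (64.8%) 43.5% with 25 nt, 84.3% with 100 nt and 63.7% at a minimum −log10 q of 5, where the window itself sets how much is counted. Restricting to genes of at least 3000 nt or leaving out Usp6nl and the Usp17l copies were chosen after seeing the data. No paired analysis was possible because there was 1 group of IP samples and no test between groups. Fold values on few reads, as in Usp2, Usp3, Usp25, Usp44 and Usp53, are limited by counting error.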
